A study of Homo sapiens with 16 samples.

Results

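The genes described here are the 4 CLK kinase genes CLK1, CLK2, CLK3 and CLK4, the 2 L cyclin genes CCNL1 and CCNL2, and the splicing factor gene RBM39. All 7 were found by symbol among the 56969 Ensembl genes of the deposited table. They were chosen as genes known to keep introns in the nucleus, and because they were higher after HCF-1 siRNA in these same libraries, so the difference between the groups is given for them as a description and without a test. The groups overlapped in CLK3, so it is not described as higher here. In the other 6 genes the groups did not overlap, which the choice itself favoured, so this does not support the label. Whether introns were kept was not measured.

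The libraries came from HepG2, an established human liver cancer cell line, grown in culture. Cells in 1 group received a control siRNA, and cells in the other received siRNA against HCF-1, a chromatin-bound transcription cofactor encoded by HCFC1. Both groups were transfected in 2 rounds, 2 days apart, and RNA was taken 2 days after the second round. Each group has 8 libraries, which the labels call biological replicates.

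CLK kinases phosphorylate SR proteins, the serine- and arginine-rich factors that bind exons and recruit the splicing machinery, and so release them from nuclear speckles. L cyclins pair with CDK11 kinases and are themselves rich in arginine and serine, and RBM39 is a relative of the splicing factor U2AF2. Transcripts of several of these genes are known to be held in the nucleus with an intron still in place, a state called intron detention. The values here are read counts per gene, which hold spliced and intron-keeping transcripts together, so they do not say which form of a transcript changed.

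Depth was 21030830 to 32820459 reads counted to genes in control libraries and 25098840 to 43186890 in HCF-1 siRNA libraries, and the means differed (two-sided exact permutation p = 0.0375, 8 against 8 libraries). Values below are deposited normalized counts, reads divided by a size factor for each library. The least covered of the 7 genes, CLK4, had 76 to 360 reads in a library. HCFC1, the target of the siRNA, had 4851 to 6878 normalized counts across controls and 3112 to 4171 across libraries of its own siRNA, where its mean was 65.4% of control and the groups did not overlap. The hepatocyte markers ALB, AFP, APOA1, SERPINA1, TTR and GPC3 were present in every library, and the blood marker PTPRC was at 0 to 3.6 normalized counts. PECAM1 was not found by symbol, COL3A1, a fibroblast marker, was at 246.3 normalized counts in control siRNA replicate 7 (control median 5.475) and at 0 to 12.4 in HCF-1 siRNA libraries. ACTA2, a muscle marker, was at 1641 to 1946 in control libraries, so this last one does not mark another cell type here.

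Of the CLK kinases, CLK1 and CLK4 were about 2-fold higher after HCF-1 siRNA, CLK2 was higher by less, and CLK3 was nearly level. In CLK1, the founding member of the family, control libraries spanned 305.4 to 373.3 normalized counts (median 339.7), while HCF-1 siRNA libraries spanned 524.6 to 927.2 (median 711.1). The lowest HCF-1 siRNA library, replicate 6, lay above every control library. Its mean went from 342 ± 24.9 to 719 ± 120.5 (SD, n = 8 each), a log2 fold change of 1.06 ± 0.09 (SE of the limma fit, on the log2(normalized count + 1) scale).

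CLK4, the closest relative of CLK1, had the lowest count of the 7 genes. Control libraries spanned 87.6 to 126.6 normalized counts (median 98.5), and HCF-1 siRNA libraries 173.8 to 246.9 (median 211.6), again without overlap. Its log2 fold change was 1.03 ± 0.10 (SE). The ratio of CLK1 to CLK4 within a library, which does not depend on the size factors, was 3.38 ± 0.343 in control and 3.46 ± 0.521 in HCF-1 siRNA libraries (SD, n = 8 each). The difference in this ratio was smaller than its spread between libraries.

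CLK2, which among the CLK kinases is also known as a regulator of liver glucose production, spanned 426.1 to 540 normalized counts across controls (median 475.7) and 654.8 to 780.2 after HCF-1 siRNA (median 707.2). Its groups did not overlap either, and its log2 fold change was 0.58 ± 0.06 (SE). CLK1 per CLK2 went from 0.717 ± 0.0526 to 1.01 ± 0.172 (SD, n = 8 each), 1.41 times higher.

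CLK3, a kinase of the same family, spanned 670.4 to 937.3 normalized counts across controls (median 835.8) and 696.2 to 1036 after HCF-1 siRNA (median 861). The groups overlapped over most of their range, and the log2 fold change was 0.09 ± 0.08 (SE). CLK1 per CLK3 was 0.356 to 0.506 in control libraries and 0.506 to 1.11 in HCF-1 siRNA libraries. In every control library CLK3 had a higher count than CLK1, CLK2 or CLK4, and in some HCF-1 siRNA libraries CLK1 reached or passed it.

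In 3 CLK genes an exon lies between 2 introns that annotated transcripts keep. In GENCODE 29 (build GRCh38), the CLK1 exon at chr2:200860125-200860215 is 91 bases long, and so is the CLK4 exon at chr5:178617344-178617434. The introns before and after it measure 1022 and 378 bases in CLK1 and 1121 and 395 bases in CLK4. CLK3 has an exon of 97 bases in the matching place (chr15:74622120-74622216), between introns of 1894 and 277 bases. In all 3 genes the introns on both sides of the exon are annotated as retained, and the splice sites of the one after it are shown to compare the genes. They are written 5′ to 3′ on the gene's strand, with intron bases of the 5′ site and the last 2 intron bases of the 3′ site in capitals.
CLK1, start of the intron at chr2:200859747-200860124: gatGTATAG
CLK4, start of the intron at chr5:178616949-178617343: gatGTATAG
CLK3, start of the intron at chr15:74622217-74622493: gatGTACAG
CLK1, end of the same intron: gatttatttctctcttttAGatg
CLK4, end of the same intron: tttttccctcctcactctAGatg
CLK3, end of the same intron: caatttcttttctctcctAGatg
The introns were matched between the genes by the first letters of this site, gatGTA, so those letters were the same by choice. With them included, the 5′ sites of CLK1 and CLK4 were the same in 9 of 9 bases, and CLK3 shared 8 of 9 with each. The 3′ sites shared 12 of 23 bases between CLK1 and CLK4, 16 between CLK1 and CLK3 and 11 between CLK3 and CLK4. CLK3, whose groups overlapped, thus has the same arrangement. The deposited table gives counts per gene only, and whether reads in these introns entered them is unknown.

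Both L cyclins were about 2-fold higher after HCF-1 siRNA. CCNL1, also known to be induced early after growth signals, spanned 430 to 655.4 normalized counts across controls (median 535.4) and 815.5 to 1398 after HCF-1 siRNA (median 1046). Its log2 fold change was 1.02 ± 0.11 (SE), the widest error of the 7 genes, and the groups did not overlap. CCNL2, its paralog, spanned 673.7 to 972 across controls (median 828.2) and 1539 to 2032 after HCF-1 siRNA (median 1871), also without overlap. Its log2 fold change of 1.16 ± 0.07 (SE) was the highest of the 7 genes. CCNL2 per CCNL1 was 1.57 ± 0.146 in control and 1.75 ± 0.375 in HCF-1 siRNA libraries (SD, n = 8 each), a difference within the spread of the libraries.

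RBM39, an RNA-binding protein that also acts as a coactivator of nuclear receptors and is the target of aryl sulfonamide degraders, was the most read of the 7 genes. Controls spanned 3242 to 3854 normalized counts (median 3704), and HCF-1 siRNA libraries 5617 to 6226 (median 5948). The groups lay far apart relative to their spread, with a log2 fold change of 0.71 ± 0.04 (SE), the smallest error of the 7. CCNL2 per RBM39 went from 0.229 ± 0.022 to 0.312 ± 0.0277 (SD, n = 8 each), 1.37 times higher, and its ranges (0.195 to 0.262 and 0.265 to 0.362) did not overlap.

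**Figure D1:**
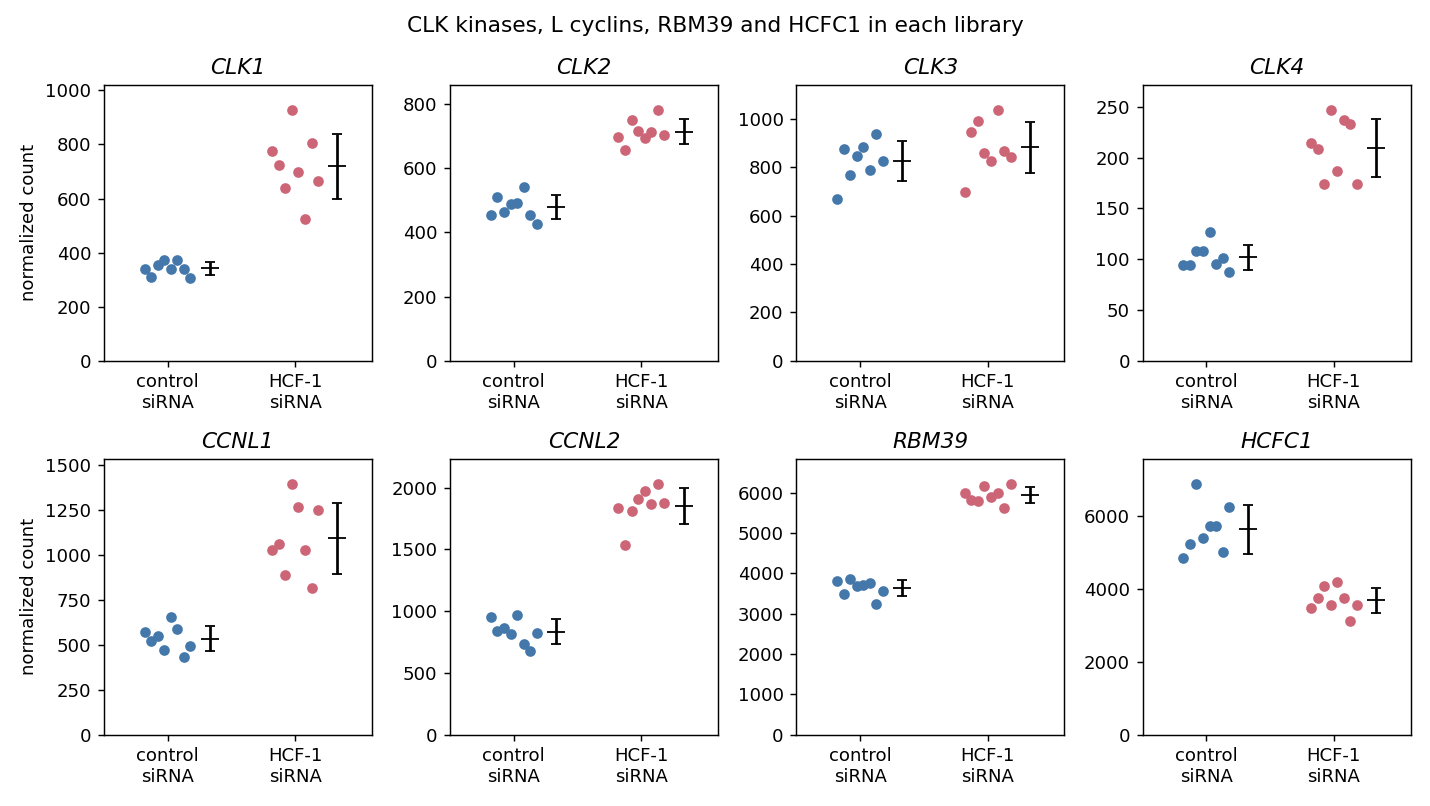
Normalized counts of the 7 genes and of HCFC1 (y axis, from 0) in the 8 control siRNA libraries (blue) and the 8 HCF-1 siRNA libraries (red), in replicate order, with the mean and SD beside each group. In 6 of the 7 genes the lowest HCF-1 siRNA library lies above the highest control library; CLK3 overlaps, and HCFC1 is lower after its siRNA.

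Non-overlap with HCF-1 siRNA higher was seen in 6 of the 7 genes, and in 4.59% of the 16081 genes tested; in 5.23% the groups did not overlap with HCF-1 siRNA lower. The median log2 fold change of the 7 genes was 1.02, beside 0.01 over all genes tested. Since the genes were chosen from this contrast, nothing is read from these counts. Among all genes tested, 287 had a larger log2 fold change than CCNL2, 356 than CLK1, 383 than CLK4, 394 than CCNL1, 948 than RBM39, 1345 than CLK2 and 6200 than CLK3. With reads thinned to the smallest library, 21030830 in each, the log2 fold changes were 1.06 for CLK1, 0.58 for CLK2, 0.09 for CLK3, 1.05 for CLK4, 0.99 for CCNL1, 1.15 for CCNL2 and 0.70 for RBM39. CCNL1 moved the most, from 1.02 to 0.99. More RNA per cell and more cells that hold the RNA cannot be told apart in bulk libraries.

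Few reads were counted to known copies of these genes. The processed copies CLK2P1, CLK3P2, CCNL2P1 and RBM39P1 have rows of their own, with at most 3.41, 0, 0.899 and 1.8 normalized counts in a library, although reads shared between a gene and its copy may have been left out of both. In GENCODE 29, exons of CLK3 share 701 bases, 3.4% of its merged exons, with exons of EDC3 on the opposite strand, and EDC3 had a mean of 1527 normalized counts in control and 1612 in HCF-1 siRNA libraries. The sources used here do not give the strand setting of the counting. Part of the CLK3 count may therefore come from EDC3, or reads in the shared bases may have been left out of both. CLK4 shares 161 bases with RN7SKP70, a small RNA copy, which had a mean of 1.193 normalized counts in control and 3.037 in HCF-1 siRNA libraries.

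Levels per length put RBM39 first, CLK3 next to last and CLK4 last under both lengths used and in both groups, and the order of CLK1, CLK2, CCNL1 and CCNL2 depended on the length or the group. Per kilobase of merged exons in GENCODE 29, RBM39 had 305 ± 16.9 normalized counts in control libraries (SD, n = 8), the highest of the 7, and CLK4 had 12.9 ± 1.55, the lowest. CLK2 (130 ± 9.88) and CCNL2 (122 ± 14.6) followed RBM39 with overlapping ranges. CLK1 (66.2 ± 4.82) and CCNL1 (61.3 ± 8.12) came next, and these ranges overlapped too. CLK3 (40.3 ± 4.03), whose merged exons span 20443 bases, stood between them and CLK4. With the longest protein-coding transcript as the length, an alternative added after seeing the data, the order was RBM39 (1286), CCNL2 (361), CCNL1 (224), CLK2 (221), CLK1 (169), CLK3 (78.5) and CLK4 (39.7). In HCF-1 siRNA libraries the level per kilobase of merged exons was 498 ± 16.9 for RBM39, 271 ± 21.4 for CCNL2, 194 ± 10.4 for CLK2, 139 ± 23.3 for CLK1, 125 ± 22.9 for CCNL1, 43.1 ± 5.21 for CLK3 and 26.4 ± 3.62 for CLK4. There the ranges of CCNL2, at 225 to 297, and CLK2, at 178 to 213, no longer met. With the longest protein-coding transcript as the length, CLK3 (84.0 ± 10.1) and CLK4 (81.5 ± 11.2) differed by less than their spread in that group.

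**Figure D2:**
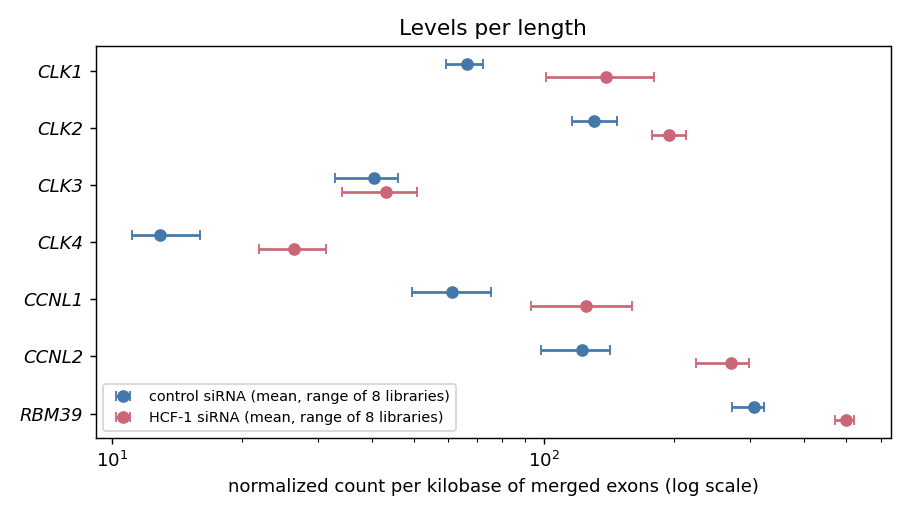
Normalized count per kilobase of merged exons (x axis, log scale) for each gene, as the mean (point) and the range over 8 libraries (bar), in control siRNA (blue) and HCF-1 siRNA (red) libraries. RBM39 is highest and CLK4 lowest in both groups, and the 2 ranges of CLK3 overlap.

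The spread between libraries of 1 group was not the same for all genes. On the log2 scale the SD of CLK1 was 0.11 in control and 0.25 in HCF-1 siRNA libraries, and that of CCNL1 was 0.19 and 0.27. RBM39 had 0.08 and 0.05, and CLK2 0.11 and 0.08. No library led for all genes: HCF-1 siRNA replicate 4 was the highest of its group for CLK1, CLK4 and CCNL1, control siRNA replicate 5 was the highest of its group for CLK4, CCNL1 and CCNL2, and control siRNA replicate 8 was the lowest of its group for CLK1, CLK2 and CLK4. In HCF-1 siRNA replicate 6, CLK1 was at its lowest (524.6) while CLK4 was near its highest (236.7).

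Within a group the genes did not vary together in a way that passed a test. This spread was not used to choose them, so it was tested: 21 pairs in each group, 42 in all, with Pearson's r over 8 libraries. The median r was 0.23 in control libraries, from -0.73 to 0.71, and 0.02 in HCF-1 siRNA libraries, from -0.58 to 0.82. No pair passed after Benjamini-Hochberg adjustment over the 42 (lowest adjusted exact permutation p = 0.556), and at an unadjusted p under 0.05, 2 control pairs and 1 HCF-1 siRNA pair were found by r and 2 and 0 pairs by Spearman's rho.

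CCNL1 and RBM39 had the highest r in both groups. It was 0.71 in control libraries (exact permutation p = 0.0498, adjusted 0.556; rho 0.67, p = 0.0831, n = 8) and 0.82 in HCF-1 siRNA libraries (exact permutation p = 0.0156, adjusted 0.556; rho 0.67, p = 0.0831, n = 8). Without the 2 libraries farthest from the CCNL1 median, r was 0.54 and 0.57. CLK3 and RBM39 had the lowest r of the control group, -0.73 (exact permutation p = 0.0412, adjusted 0.556; rho -0.81, p = 0.0218, n = 8), and -0.65 without the 2 libraries farthest from the CLK3 median. The paralogs CLK1 and CLK4 had an r of 0.43 in control (rho 0.74) and 0.34 in HCF-1 siRNA libraries (rho 0.48). Without HCF-1 siRNA replicate 6 the second value was 0.96 (exact permutation p = 0.000397, adjusted 0.0167, n = 7), so the relation in that group rests on whether this 1 library is kept, and this pair was picked after its values were seen. Leaving out the other HCF-1 siRNA libraries gave 0.04 (without replicate 4) to 0.35. In the control group r was 0.18 without replicate 8, 0.72 without replicate 5 and 0.19 with thinned reads, and 0.37 to 0.61 without each of the other libraries. The values of all genes in a library share its size factor.

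**Figure D3:**
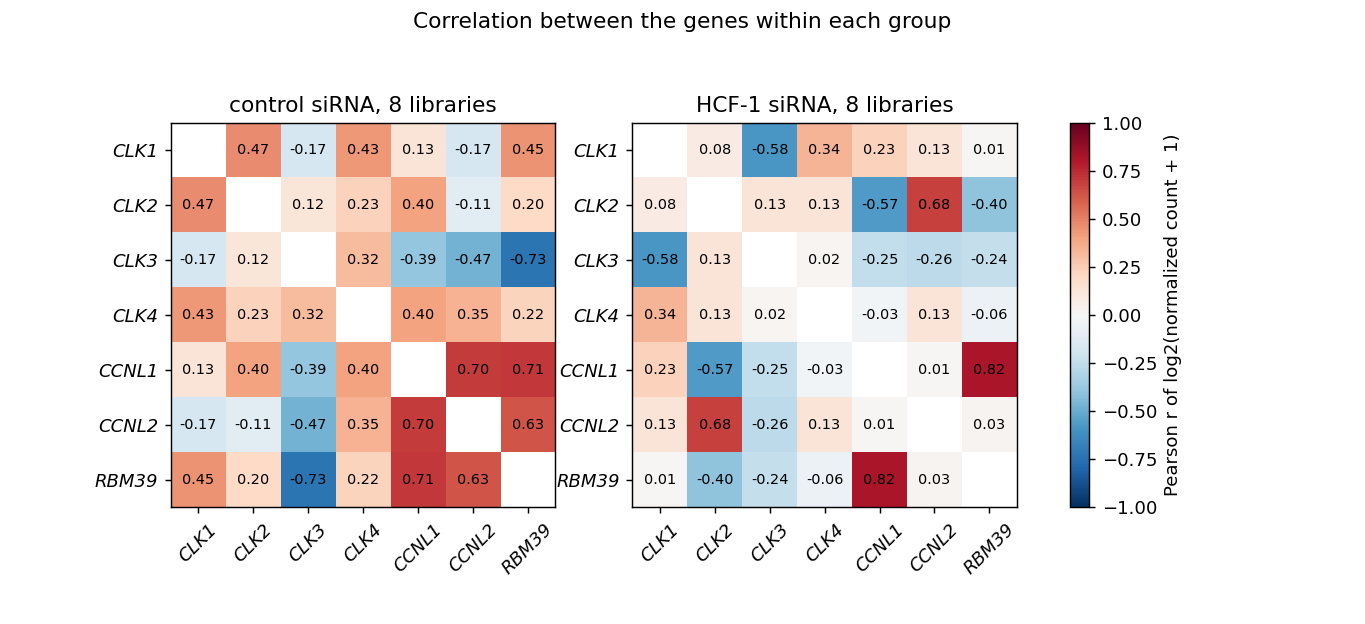
Pearson r between each pair of the 7 genes on log2(normalized count + 1), over the 8 control siRNA libraries (left) and the 8 HCF-1 siRNA libraries (right), from -1 (blue) to 1 (red). CCNL1 with RBM39 is high in both panels (0.71 and 0.82), and CCNL1 with CCNL2 is 0.70 in control and 0.01 in HCF-1 siRNA libraries. No pair passed after adjustment. Without the 2 libraries farthest from the CCNL1 median, r of CCNL1 with CCNL2 was 0.05 in control and 0.34 in HCF-1 siRNA libraries. The r values of the 2 groups were not compared by a test.

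The level of HCFC1 itself within a group did not track the 7 genes by test. Over 14 pairs of HCFC1 with a gene, 7 in each group, the lowest unadjusted exact permutation p of r was 0.16, for CLK4 in the HCF-1 siRNA group (r = -0.55, rho = -0.26, n = 8, adjusted p = 0.927), and r was -0.39 there without the 2 libraries farthest from the HCFC1 median. For CLK1 in the same group r was -0.46 (exact permutation p = 0.238, n = 8, adjusted p = 0.927; rho = -0.60, p = 0.132), and -0.50 without those 2 libraries. Other pairs of that group rested on the same 2 libraries: without them r went from 0.29 to -0.69 for CCNL1, from 0.11 to -0.73 for RBM39, from -0.39 to 0.44 for CLK2 and from 0.34 to 0.78 for CLK3. In the control group CLK3 went from -0.04 to -0.68 in the same way.

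Other genes were ranked by the mean of their r to each of the 7, over the 16 libraries with each group's mean subtracted. Among 11462 other genes with a mean of 100 or more, the highest mean r to the 7 was 0.38 for TMEM136, then 0.37 for KLHL2, SLIRP and AL589743.1, 0.36 for GPCPD1 and 0.34 for SAP130. This likeness is weak, and r to CLK3 was negative for each of these genes but AL589743.1 (0.03). TMEM136 fell (log2 fold change -0.91 ± 0.16, limma adjusted p = 2.06e-04) and KLHL2 rose (0.32 ± 0.10, limma adjusted p = 0.0148), while SLIRP was at 0.03 and SAP130 at 0.01, neither past the threshold.

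Annotated transcripts that keep an intron are common in these genes. GENCODE 29 lists 16 retained-intron transcripts for CCNL1 and for RBM39, 9 for CCNL2, 8 for CLK1 and for CLK3, 7 for CLK4 and 0 for CLK2. The other 12907 protein-coding genes tested had a median of 1, and 5.7% of them had 7 or more. Of the merged exon length, 68.5% in RBM39, 64.5% in CCNL1, 52.2% in CLK1, 51.2% in CCNL2, 49.4% in CLK4, 41% in CLK2 and 31.9% in CLK3 lay outside the exons of protein-coding transcripts. Introns of coding transcripts lying whole within an exon of a retained-intron transcript, with GT and AG ends, numbered 6 in CCNL1, 4 each in CLK1, CLK3 and CLK4, and 2 each in CCNL2 and RBM39. CLK3 and CLK2 thus stand out in opposite ways: CLK3 has such transcripts and its groups overlapped, and CLK2 has 0 and was higher after HCF-1 siRNA. The sources used here do not give the authors' annotation release, so whether reads in these introns entered the counts is unknown.

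Across the other protein-coding genes, more of those with many retained-intron transcripts rose. Of 5442 genes with 0 such transcripts 16% rose and 22.8% fell (median log2 fold change -0.03), and of 3922 genes with 1 to 2, 18.2% rose and 19.7% fell. Of 858 genes with 6 to 9, 22.5% rose and 17.5% fell, and of 221 genes with 10 or more, 30.8% rose and 20.8% fell (median 0.07). The median control level also climbed over these classes, from 517 to 1468 normalized counts, and the median merged exon length from 3978 to 8549 bases, and their part in the pattern was not tested. Genes are not independent replicates, so these shares are a description.

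**Figure D4:**
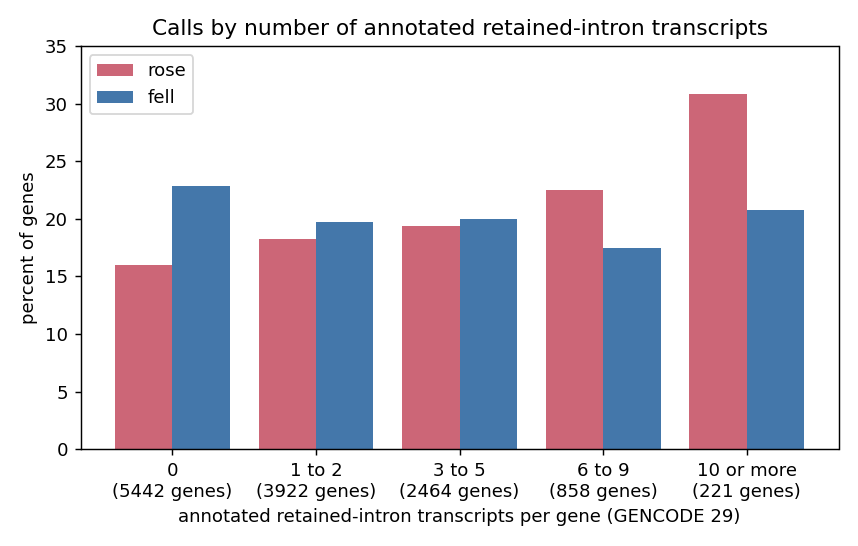
Percent of protein-coding genes, the 7 genes left out, that rose (red) or fell (blue) at a limma adjusted p under 0.05 (y axis, from 0), by the number of annotated retained-intron transcripts per gene (x axis, with the number of genes). The share that rose goes from 16% with 0 transcripts to 30.8% with 10 or more, while the share that fell goes from 22.8% to 20.8%.

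Most of the other genes listed for described retained introns rose. The list holds mainly RNA-processing genes, but also OGT and MAT2A, an enzyme that makes S-adenosylmethionine. Of its 21 genes, 16 rose, 0 fell and 5 did not pass, where 36.6% of all genes tested were called, 18.2% as higher and 18.3% as lower (limma, Benjamini-Hochberg adjusted p under 0.05 over 16081 genes). The list median was 0.37 on the log2 scale. At an unadjusted p under 0.05 1 gene was lower, DDX39B at -0.08, and edgeR and DESeq2 each called 1 falling gene. NKTR, which encodes a cyclophilin-related protein with an arginine- and serine-rich domain, had the largest rise and went from 869.6 ± 216 to 1698 ± 216 normalized counts (SD, n = 8 each; 0.99 ± 0.13, limma adjusted p = 1.53e-05). RSRP1, listed as C1orf63, went from 123.4 ± 21.2 to 225.8 ± 12.2 (0.88 ± 0.10, limma adjusted p = 3.33e-06). OGT, the enzyme that attaches O-GlcNAc to proteins and cleaves HCF-1, rose by 0.71 ± 0.08 on the log2 scale (limma adjusted p = 3.64e-06). The list was written with earlier results of these data known, so it is no independent support. RBM5, LUC7L3, PRPF38B, SREK1, PNISR, ARGLU1, RBM25, MAT2A, NXF1, PABPN1, SON, LUC7L and DDX5 made up the rest of the 16. SNRNP70, LUC7L2 and HNRNPDL were among those that did not pass.

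The SR proteins, which CLK kinases phosphorylate, moved in both directions. Of 14 measured, 7 rose, 3 fell and 4 did not pass, beside 18.2% of all genes tested called higher and 18.3% lower. The list median was 0.12 on the log2 scale. SRSF4 went from 2278 ± 369.8 to 2947 ± 541 normalized counts (0.37 ± 0.11, limma adjusted p = 0.0182). TRA2A rose by 0.34 ± 0.09 (limma adjusted p = 0.0079) and SRSF11 by 0.32 ± 0.05 (limma adjusted p = 3.05e-05). SRSF9, a short SR protein, fell from 3929 ± 350.1 to 3456 ± 176.1 (-0.18 ± 0.05, limma adjusted p = 0.011). SRSF8 fell by 0.15 on the log2 scale (limma adjusted p = 0.0445), a call lost in 12 of 27 alternatives (limma adjusted p 0.0184 to 0.157). Leaving out any one of control replicates 4, 5, 6 and 7, or of replicates 1, 2, 3, 7 and 8 after HCF-1 siRNA, ended it (-0.13 to -0.15). The largest change among the 14 genes, 0.37, was below that of 6 of the 7 genes described here. Those 7 were chosen for being higher in this contrast, so nothing is read from this difference.

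Of all genes tested, 18.2% were called higher and 18.3% lower. Among the other kinases of SR proteins and relatives of the CLK kinases, 3 of 12 rose, 0 fell and 9 did not pass. The list median was 0.06 on the log2 scale. At an unadjusted p under 0.05 1 was lower, and edgeR and DESeq2 each called 1 falling gene. PRPF4B, a kinase of the spliceosome, rose by 0.40 ± 0.08 (limma adjusted p = 7.48e-04), HIPK2 by 0.37 ± 0.04 (limma adjusted p = 7.38e-07) and HIPK1 by 0.17 ± 0.04 (limma adjusted p = 0.00234). SRPK1, the main cytoplasmic kinase of SR proteins, had 5957 ± 713 normalized counts in control and 5998 ± 1029 in HCF-1 siRNA libraries (SD, n = 8 each) and did not pass. HIPK4, at 0 to 1.301 normalized counts, was too low to test.

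The CDK and cyclin genes of transcription hold the CDK11 partners of the L cyclins. Among them 6 of 16 rose, 1 fell and 9 did not pass, beside 18.2% of all genes tested called higher and 18.3% lower. The list median was 0.10 on the log2 scale. CDK11A rose from 627.7 ± 125 to 839.3 ± 134 normalized counts (0.42 ± 0.12, limma adjusted p = 0.00981), and CDK11B, its near-identical copy, went from 1096 ± 94.6 to 1183 ± 133 and did not pass. Reads of these copies may have been split or dropped, so both values are uncertain. CDK10 (0.89 ± 0.18, limma adjusted p = 8.67e-04), CDK19 (0.61 ± 0.08, limma adjusted p = 2.67e-05) and CCNT2 (0.60 ± 0.10, limma adjusted p = 1.94e-04) had the largest rises. CDK9, the kinase that releases paused RNA polymerase II, fell by 0.28 on the log2 scale (limma adjusted p = 0.027). That call was lost without control siRNA replicate 4 (-0.24, adjusted p = 0.057).

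A list of 11 genes around 3′ splice site recognition holds relatives of RBM39 and also the kinase gene UHMK1 and DCAF15, a ubiquitin ligase receptor. In it 2 rose, 0 fell and 9 did not pass, where 18.2% of all genes tested were called higher and 18.3% lower. The rising count is near that share, and the list median was 0.03 on the log2 scale. At an unadjusted p under 0.05 1 was lower, and edgeR and DESeq2 called 0 falling genes. SF3B1, a core protein of the U2 particle, went from 10867 ± 1128 to 14713 ± 822.5 normalized counts (0.44 ± 0.06, limma adjusted p = 1.05e-05), and UHMK1, a kinase of SF1, rose by 0.34 ± 0.07 (limma adjusted p = 0.00138). U2AF2 had 5234 ± 243 and 4858 ± 381 normalized counts and did not pass. RBM23, the closest relative of RBM39, was at 52.2 and 51.1 on average with an SD near its mean.

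Transcripts with retained introns can be substrates of RNA decay, so its factors were listed too. Of 19 measured, 9 rose, 3 fell and 7 did not pass, beside 18.2% of all genes tested called higher and 18.3% lower. The list median was 0.06 on the log2 scale. ZFC3H1, which brings nuclear polyadenylated RNA to the exosome, went from 364.9 ± 126.5 to 818.3 ± 174 normalized counts (1.21 ± 0.20, limma adjusted p = 1.41e-04). SMG1, the kinase of nonsense-mediated decay, rose by 0.56 ± 0.06 (limma adjusted p = 3.79e-06) and UPF3B by 0.43 ± 0.08 (limma adjusted p = 5.56e-04). RBM8A, an exon junction protein, fell by 0.15 on the log2 scale (limma adjusted p = 0.00418). SMG8 fell by 0.18 on the log2 scale (limma adjusted p = 0.0402), a call lost in 11 of 27 alternatives (limma adjusted p 0.0196 to 0.0938). Leaving out any one of control replicates 2, 3, 4, 5 and 8, or of replicates 3, 4, 6 and 7 after HCF-1 siRNA, ended it (-0.14 to -0.18).

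**Figure D5:**
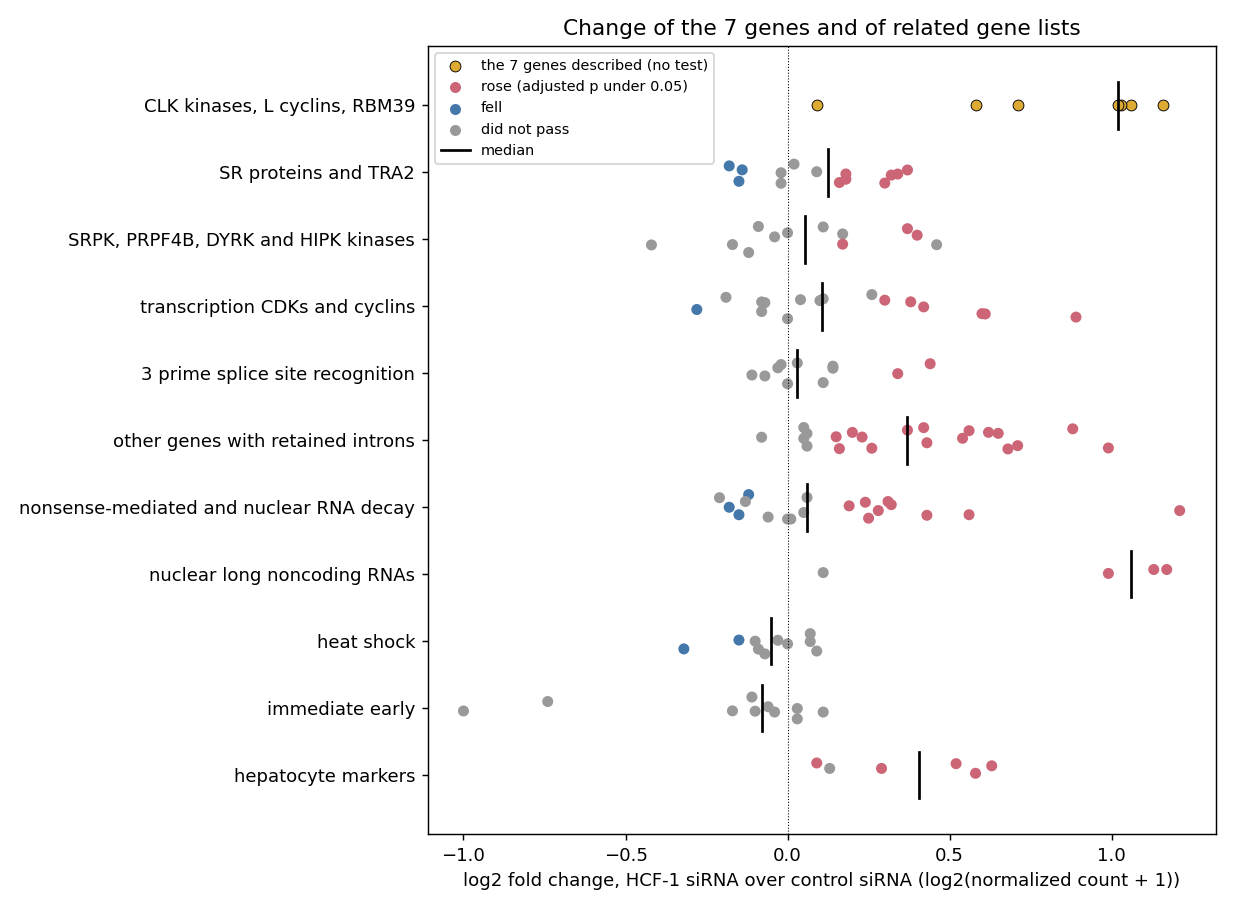
Log2 fold change of HCF-1 siRNA over control siRNA (x axis, on the log2(normalized count + 1) scale) for the 7 genes (yellow, no test) and for each tested gene of 10 lists, coloured red where it rose, blue where it fell and grey where it did not pass, with the list median as a black line. The medians of the 7 genes (1.02), of the nuclear long noncoding RNAs (1.06), of the hepatocyte markers (0.41) and of the other genes with retained introns (0.37) lie to the right of those of the other lists. The 7 genes were chosen from this contrast, so nothing is read from their place.

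Of the RNAs kept in the nucleus, NEAT1, MALAT1 and KCNQ1OT1 rose beside the 7 genes. NEAT1, the scaffold of paraspeckles, went from 956.5 ± 556 to 2036 ± 660 normalized counts (1.17 ± 0.24, limma adjusted p = 9.71e-04), and MALAT1, an RNA of nuclear speckles, from 220.5 ± 78.8 to 467.3 ± 96 (1.13 ± 0.18, limma adjusted p = 1.28e-04). KCNQ1OT1 went from 317 ± 65.2 to 626.5 ± 107 (0.99 ± 0.13, limma adjusted p = 1.08e-05), although it lies antisense to KCNQ1 and the strand setting is unknown. TUG1 did not pass (2966 ± 369 and 3188 ± 208), and MIAT, at 0 to 30.6 normalized counts, was too low to test. Of the 4 measured, 3 rose and 0 fell by limma, beside 18.2% of all genes tested called higher and 18.3% lower. Also 0 fell at an unadjusted p under 0.05 and by edgeR and DESeq2, and the list median was 1.06 on the log2 scale. Their part in the higher counts of the 7 genes was not tested.

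Genes of acute stress did not rise with the 7 genes by test, where 18.2% of all genes tested were called higher and 18.3% lower. Of 10 heat shock genes, 0 rose and 2 fell by limma, with a list median of -0.05 on the log2 scale; 0 rose at an unadjusted p under 0.05 or by edgeR or DESeq2. Those that fell were HSPB1 (-0.32 ± 0.07, limma adjusted p = 0.00101) and DNAJB1 (-0.15 ± 0.04, limma adjusted p = 0.00936). Of 10 immediate early genes, 0 rose and 0 fell by limma, with a median of -0.08 and MYC, the most abundant, at 6640 ± 160 and 6801 ± 297 normalized counts. At an unadjusted p under 0.05 1 was higher and 1 lower, and edgeR and DESeq2 called 0. FOS ran from 6.21 to 237.5 over the 16 libraries, so a change in it could have been missed. The hepatocyte markers moved with the 7 genes, as 5 of 6 rose with a list median of 0.41 on the log2 scale, above that of the retained-intron list; among them were TTR (0.63 ± 0.06, limma adjusted p = 1.14e-06), AFP (0.58 ± 0.07, limma adjusted p = 5.29e-06) and ALB (0.52 ± 0.06, limma adjusted p = 4.51e-06). Their part in the higher counts of the 7 genes was not tested.

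The promoters of the 4 genes with the largest log2 fold changes are shown so that their letters can be compared. Each is the 250 bases before the start site in RefSeq (GRCh38.p14), written 5′ to 3′ on the gene's strand; where RefSeq gave 2 start sites, the one with more GENCODE coding transcripts starting within 100 bases was taken. Capitals mark CGTCA, a core of the CREB and ATF site, CCGGAAG, a core of the ETS site that GABPA binds, and CCAAT, the NF-Y box, on either strand.
CLK1 (chr2:200864659-200864908, strand -): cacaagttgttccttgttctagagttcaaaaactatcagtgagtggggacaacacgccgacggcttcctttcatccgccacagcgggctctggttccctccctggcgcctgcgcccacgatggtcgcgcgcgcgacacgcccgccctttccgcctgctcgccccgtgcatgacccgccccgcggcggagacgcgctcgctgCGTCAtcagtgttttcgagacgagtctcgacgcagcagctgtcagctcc
CLK4 (chr5:178627051-178627300, strand -): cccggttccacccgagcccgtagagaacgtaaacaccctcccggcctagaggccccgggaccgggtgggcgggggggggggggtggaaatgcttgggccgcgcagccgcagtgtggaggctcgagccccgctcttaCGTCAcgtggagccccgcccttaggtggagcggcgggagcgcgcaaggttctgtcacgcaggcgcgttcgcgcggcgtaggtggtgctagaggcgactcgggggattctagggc
CCNL1 (chr3:157160148-157160397, strand -): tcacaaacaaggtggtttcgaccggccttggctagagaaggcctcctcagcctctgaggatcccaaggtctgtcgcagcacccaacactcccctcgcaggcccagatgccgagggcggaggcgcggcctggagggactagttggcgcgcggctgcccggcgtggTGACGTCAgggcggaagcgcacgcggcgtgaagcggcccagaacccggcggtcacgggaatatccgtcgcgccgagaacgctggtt
CCNL2 (chr1:1399336-1399585, strand -): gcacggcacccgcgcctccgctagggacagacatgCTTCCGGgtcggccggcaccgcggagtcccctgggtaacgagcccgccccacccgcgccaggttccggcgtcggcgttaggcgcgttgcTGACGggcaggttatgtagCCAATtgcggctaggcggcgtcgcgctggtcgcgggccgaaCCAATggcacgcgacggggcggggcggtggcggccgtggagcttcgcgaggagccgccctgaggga
Windows were found for 6 of the 7 genes, and RBM39 has none in the table. CGTCA was found in 5 of the 6 (CLK1, CLK3, CLK4, CCNL1 and CCNL2) and in 21.2% of 35116 windows of the same length. Its full palindrome TGACGTCA, which overlaps it, was found in CCNL1 alone, from -86 to -79, and in 1.6% of windows. CCGGAAG and CCAAT were found in CCNL2 alone, and in 8.5% and 32.0% of windows. The other CLK3 window, at the start site not taken, holds the NF-Y box in 2 places and has no match to the CREB core or the SP site. GGGCGG, the SP site, was in all 6 and in 42.6% of windows, and CACGTG, an E-box, was in CLK2 and CLK4 and in 6.3%. The letters ACTACA, part of the ZNF143 element, the NRF1 site, and AANATGGCG, a YY1 core, were in 0 of the 6 windows and in 7.3%, 1.0% and 1.4% of all windows. All motifs were read on both strands, and a match is not a measured site. The windows taken for the 6 genes held 64.4% (CLK1) to 78.0% (CLK3) G and C bases. The shares over all windows were not matched for this, and its part in the matches was not tested.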

How the data were processed

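Libraries were made from total RNA with a stranded mRNA kit, per the labels' protocols. The deposited table holds normalized counts (a signal: reads over a size factor) for each gene in each library. The submitters' processing notes name DESeq2 1.16.1, featureCounts 1.4.4, STAR 2.4.1d, cutadapt 1.4.2 and hg19. The sources used here do not give annotation release, strand setting or filters. All 16 columns were mapped to libraries by title, 1 although its name lacks a digit. Values of a library come in whole steps (100% within 0.001 read), which gave back the reads; edgeR called 5853 genes on them. No 2 libraries of a group agreed within sampling noise (chi-square per degree of freedom 12.1 or more). Labels do not say how cultures were separated, so p-values measure the spread between these libraries.

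Genes with a mean of 10 or more (16081) were compared with limma 3.58.1 in R 4.3.3 (trend and robust options) on log2(normalized count + 1), with Benjamini-Hochberg adjustment and a threshold of 0.05. The pseudocount understates changes of low genes. Alternatives used edgeR 4.0.16, DESeq2 1.42.0, other pseudocounts, filters and scalings, array weights, a replicate block and each library left out. The members and lists were chosen with earlier results of these data known. Besides the 7 genes and HCFC1, genes named with values were, in each list, up to 3 rising and 2 falling called genes of largest change (mean 50 or more in either group), or the most abundant where none was called, and the 6 genes of most similar pattern; DDX39B, SRPK1, HIPK4, CDK11A, CDK11B, U2AF2, RBM23, TUG1, MIAT and FOS were added after their values were seen. List members were matched by symbol, then older symbols. 1 list member is counted but not reported here by name. Lengths and transcript types came from GENCODE 29 by Ensembl identifier (96.6% of genes tested), a build other than the files'.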

Additional observations from a re-analysis of the deposited data

Results flagged for a closer look

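In 11 of 116 groups of 8 libraries looked at, 1 library lay apart from the other 7, as measured by the distance to its neighbour relative to the group's whole range. About 1 group in 20 is picked by chance where values follow a normal distribution. Those of MIAT and PTPRC, mostly at or near 0, do not. Some of the genes looked at were added after their values were seen, so the count is not compared with that share. In HCF-1 siRNA replicate 2 the CCNL2 value was 1539 normalized counts, where the other libraries of its group had 1808 to 2032, and it was the only one of the 7 genes described with such a library. TRA2A had 1470 in control siRNA replicate 1, against 892.7 to 1162. HIPK1 had 2577 in HCF-1 siRNA replicate 6, against 2328 to 2441. CDK9 had 1095 in control siRNA replicate 4, against 836.5 to 957.7. NEAT1 had 2304 in control siRNA replicate 6, against 559.2 to 923.4, and 3533 in HCF-1 siRNA replicate 5, against 1359 to 2277. RBM23 had 137.8 in HCF-1 siRNA replicate 4, against 16.66 to 58.53. MIAT had 30.62 in control siRNA replicate 8, against 0 to 1.019, and 19.52 in HCF-1 siRNA replicate 6, against 0 in the others. PTPRC had 3.598 in control siRNA replicate 3, against 0. COL3A1 had 246.3 in control siRNA replicate 7, against 1.86 to 13.61. That library was the lowest of its group for CCNL1, CCNL2 and RBM39, whose log2 fold changes without it were 0.98, 1.12 and 0.68. NEAT1 kept its call when either library was left out (log2 fold change 1.38 and 1.05).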

How the results depend on the processing

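The log2 fold changes of the 7 genes moved by less than 1 SD between libraries under all 27 alternatives run. With 1 library left out they ranged from 1.00 to 1.12 for CLK1, 0.55 to 0.60 for CLK2, 0.053 to 0.14 for CLK3, 0.99 to 1.07 for CLK4, 0.97 to 1.08 for CCNL1, 1.12 to 1.20 for CCNL2 and 0.68 to 0.72 for RBM39. The number of genes called was 5163 to 6258 under the alternatives, and that of rising genes with retained introns 14 to 16. A falling gene joined that list (1) with the filter at a mean of 50, upper-quartile or total-count scaling, thinned reads, array weights, edgeR and DESeq2. One gene (1) also fell among the SRPK, DYRK and HIPK kinases with total-count scaling, thinned reads, edgeR and DESeq2, and 1 among the 3′ splice site genes with total-count scaling; with no filter 1 rather than 3 decay factors fell. With 1 library left out, the falling genes numbered 0 to 1 in the retained-intron, kinase, 3′ splice site and immediate early lists, 0 to 2 among CDKs and cyclins and 2 to 4 in the heat shock list, and the rising heat shock genes 0 to 1. The libraries behind these shifts were control siRNA replicates 2, 3, 4, 5 and 8 and HCF-1 siRNA replicates 3 and 6. The pairs of the 7 genes correlated past the threshold in HCF-1 siRNA libraries numbered 0 to 1. ACTA2, not called, was at -0.00015 with total-count scaling. The cause of these shifts was not tested.

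No pairing by replicate number was seen in the values, although the labels do not say whether cultures were paired. Deviations of same-numbered libraries had correlations of -0.074 to 0.098, and 1 of 8 control libraries correlated best with its own number. With the replicate number as a block, 5484 genes were called. Depth limits the lowest counts most, those of CLK4 at 76 reads or more.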
